A study of Rattus norvegicus with 372 samples.

Results

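The genes described here are the inducible drug-metabolizing cytochromes P450 (CYPs) of the CYP2B and CYP3A families, together with Por, the reductase that passes electrons to them, as measured in primary rat hepatocytes. They were chosen by name, as textbook targets of the nuclear receptors CAR and PXR, and the rule for choosing them uses no measured value, though earlier results of these data were known. Of the 8 genes named, 7 had a probe in the whole-transcriptome (WT) assay, out of 20946 genes with one, namely Cyp2b1, Cyp2b2, Cyp3a1, Cyp3a23/3a1, Cyp3a2, Cyp3a9 and Por. In the WT assay 4 of them were found by name, and 3 (Cyp3a1, Cyp3a23/3a1 and Cyp3a2) by the probe number that they share with the S1500+ surrogate (ST) assay, where they carry those names. The expression of Cyp3a18 was not analysed here. In the ST assay 6 of the genes had a probe and 5 averaged 10 or more reads per well, the limit for testing, the exception being Cyp3a23/3a1, and in the WT assay all 7 passed.

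Hepatocytes of male Wistar rats were kept between collagen layers in 96-well plates and exposed for 24 h to 14 chemicals at a low and a high concentration, 28 treatments in all. The chemicals were acetaminophen (400 and 10000 µM), caffeine (400 and 10000 µM), chloramphenicol (18 and 450 µM), diclofenac (16 and 400 µM), doxorubicin (0.08 and 2 µM), indomethacin (12 and 300 µM), isoniazid (400 and 10000 µM), ketoconazole (0.6 and 15 µM), naproxen (80 and 2000 µM), ranitidine (160 and 4000 µM), simvastatin (2.4 and 60 µM), sulfasalazine (4 and 100 µM), valproic acid (400 and 10000 µM) and WY14643 (8 and 200 µM). Each batch came from 1 rat and held 3 wells per treatment, which are technical replicates, so that the 2 batches are the biological replicates. Controls were vehicle wells (0.5% DMSO, which every treated well also received; 3 in batch 1 and 6 in batch 2) and as many wells of medium alone. All wells, controls included, held insulin, epidermal growth factor and 100 nM dexamethasone, a glucocorticoid known to induce CYP3A in rat liver, so a rise described here came on top of it. In batch 1 the control wells were all on plate 4, and plate 5 held acetaminophen, chloramphenicol, indomethacin, ketoconazole, sulfasalazine and WY14643 without controls, so there plate and chemical cannot be told apart.

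CYPs of these families oxidize a wide range of drugs and steroids in the endoplasmic reticulum, and each needs electrons from NADPH through Por. The nuclear receptors CAR (gene Nr1i3) and PXR (gene Nr1i2) sense foreign compounds, pair with the retinoid X receptor (gene Rxra) and bind DNA repeats near their targets. CYP2B genes are the classical targets of CAR and of phenobarbital, CYP3A genes those of PXR, and each receptor can also act on the genes of the other.

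The start regions of 4 of these genes are shown because members of each pair moved together below and their DNA is alike. The sequences are the 250 bases before the transcript start in RefSeq, build GRCr8, read 5′ to 3′ on the strand of the gene. Cyp3a2 (chr12:14343858-14344107, minus strand) and Cyp3a23-3a1, the single RefSeq gene that covers Cyp3a1 and Cyp3a23/3a1 (chr12:14398804-14399053, minus strand), each hold a direct repeat of the nuclear receptor half-site AGTTCA with 3 bases between the copies, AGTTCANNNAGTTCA, here on the reverse strand as TGAACTNNNTGAACT and set in capitals. It begins 131 bases before the start in Cyp3a2 and 144 bases before it in Cyp3a23-3a1. In Cyp2b1 (chr1:90645869-90646118, plus strand) and Cyp2b2 (chr1:90722031-90722280, plus strand) capitals mark the bases that differ between both genes.
Cyp3a2: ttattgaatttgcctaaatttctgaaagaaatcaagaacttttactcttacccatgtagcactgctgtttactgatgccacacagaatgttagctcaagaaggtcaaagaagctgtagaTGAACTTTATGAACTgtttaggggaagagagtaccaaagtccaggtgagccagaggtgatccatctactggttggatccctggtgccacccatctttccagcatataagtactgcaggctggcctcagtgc
Cyp3a23-3a1: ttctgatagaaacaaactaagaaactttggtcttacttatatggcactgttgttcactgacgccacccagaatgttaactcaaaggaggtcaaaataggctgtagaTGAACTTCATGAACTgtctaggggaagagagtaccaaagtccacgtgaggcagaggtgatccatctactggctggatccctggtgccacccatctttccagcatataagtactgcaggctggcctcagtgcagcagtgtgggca
Cyp2b1: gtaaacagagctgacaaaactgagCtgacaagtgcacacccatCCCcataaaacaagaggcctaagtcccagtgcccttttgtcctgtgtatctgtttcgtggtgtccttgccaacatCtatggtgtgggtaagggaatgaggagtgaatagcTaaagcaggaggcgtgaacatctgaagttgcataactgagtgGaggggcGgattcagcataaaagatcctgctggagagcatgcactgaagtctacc
Cyp2b2: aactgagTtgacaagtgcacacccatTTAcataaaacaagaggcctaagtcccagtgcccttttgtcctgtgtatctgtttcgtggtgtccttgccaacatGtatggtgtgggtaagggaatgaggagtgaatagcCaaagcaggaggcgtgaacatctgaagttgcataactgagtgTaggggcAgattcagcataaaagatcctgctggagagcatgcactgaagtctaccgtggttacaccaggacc
Searched on both strands over 250 bases before and 50 bases after the start, the spaced repeat was present in 2 of 33469 rat promoters (0.00598%), which are the 2 shown. Only this exact spelling was searched, which is the one these 2 alike promoters carry, and no other spelling of the half-site. Its rarity is thus largely set by the choice of motif and says nothing about a role in these genes. The half-site by itself, which every spaced repeat contains, was in 4844 promoters (14.47%). Among the other members Cyp3a18 held 2 half-sites, Cyp3a9 1, and Cyp2b1, Cyp2b2 and Por none. The windows of Cyp2b1 and Cyp2b2 differed at 8 of 283 aligned positions (97.2% identity). The well-known phenobarbital-responsive enhancer of Cyp2b genes lies far upstream of these windows, and a match of letters is a description, not a binding site.

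Each well was run by both assays, with 0.558 to 2.21 M reads (megareads) per well in ST (median 1.42 M reads) and 2.29 to 8.98 M reads in WT (median 6.84 M reads). The hepatocyte markers (Alb, Ttr, Apoa1, Serpina1, Tat, Cps1 and Hnf4a) were all measured, with a summed level of 28300 to 36900 CPM (counts per M reads of the well) in vehicle wells and 5750 to 43700 CPM in treated wells. It was lowest with diclofenac at 400 µM (5750 to 7800 CPM) and ranitidine at 4000 µM (10500 to 15500 CPM). Markers of other liver cells were low in vehicle wells, with sums of 22.7 to 43.5 CPM for 6 Kupffer cell markers, 13.4 to 40.6 CPM for 4 stellate cell markers, 1.38 to 3.37 CPM for 4 endothelial markers and 33.1 to 49 CPM for 4 cholangiocyte markers, of which 1 was at 0. In treated wells the sums ran from 3.6 to 72.8, 0.805 to 71.3, 0 to 5.22 and 4.36 to 74.2 CPM in the same order. L2FC is the log2 fold change against all vehicle wells with batch as a term, ± SE, and a gene is called higher or lower at a Benjamini-Hochberg adjusted p below 0.05 over all genes of the assay. Genes known to respond to 2 of the chemicals were looked at as a check of the labels. With edgeR the PPARα targets Acot1 and Cyp4a1 were called higher with both concentrations of WY14643, though Cyp4a1 was also called higher with both concentrations of doxorubicin and both genes with simvastatin at 60 µM, and the p53 targets Cdkn1a and Mdm2 rose with doxorubicin (L2FC 1.45 and 1.28 at 2 µM).

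Over the 28 treatments the WT assay called a member higher 86 times and lower 11 times out of 196 (7 genes in 28 treatments), beside 15.2% of all gene and treatment pairs called higher and 15.0% called lower. The ST assay made 74 higher and 7 lower calls out of 140, beside 17.1% and 17.6% of all pairs. The WT count holds Cyp3a1 and Cyp3a23/3a1 apart, although RefSeq lists both under the same gene. With the reads of both probes added, a choice made after seeing the data, the WT count was 76 higher and 11 lower, out of fewer pairs. All treatments of a batch share its vehicle wells, so these calls are not independent of each other. The 11 lower calls of the WT assay and the 7 of the ST assay were all at high concentrations, where the members were called higher 57 times (WT) and 50 times (ST), against 29 and 24 times at low concentrations. Calls over all genes were split likewise, with 25.4% of WT pairs higher and 25.5% lower at high concentrations and 4.9% and 4.5% at low ones (27.9%, 29.7%, 6.33% and 5.57% in ST). At least 1 member was called in 24 of 28 treatments by WT assay and in 25 by ST assay. The shares of all genes called at high concentrations are large, so a call there in a set of this size says little by itself. Other sets of genes were not counted for comparison. With acetaminophen at 400 µM, isoniazid at 400 µM and simvastatin at 2.4 µM neither assay called any member.

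**Figure D1:**
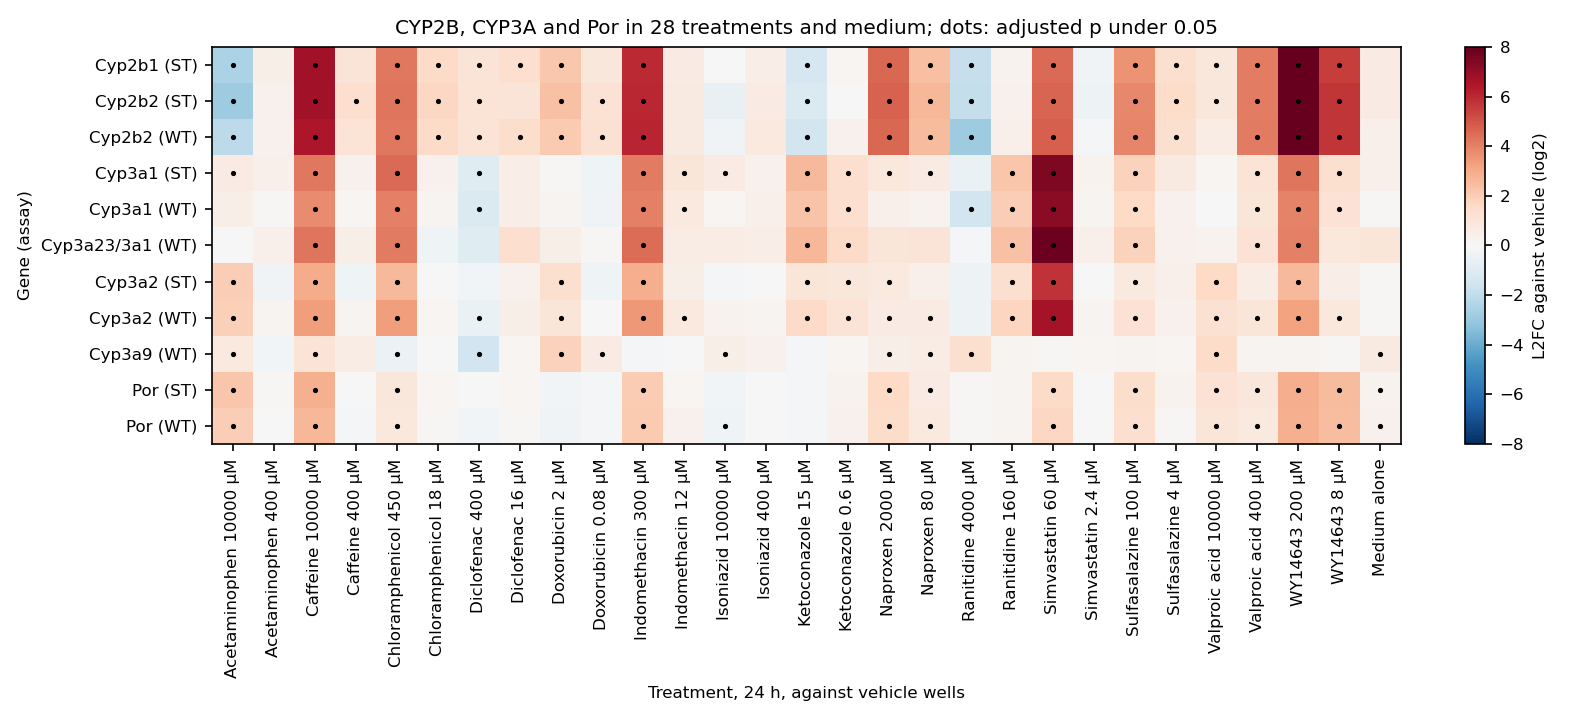
L2FC against vehicle of each member (rows, with the assay in brackets) in the 28 treatments and in medium alone (columns), on a log2 colour scale that saturates at its ends. Dots mark an adjusted p below 0.05 by edgeR. The WT probe of Cyp2b1 is left out because vehicle wells held 0 to 3 of its reads. The CYP2B rows are deepest red with WY14643 at 200 µM (8.84 for Cyp2b2 in ST), the CYP3A rows with simvastatin at 60 µM (7.48 for Cyp3a1 in ST), and Cyp3a9 does not follow the other CYP3A rows.

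Cyp2b2 encodes one of the phenobarbital-inducible CYPs of rat liver, which hydroxylate many drugs. By ST assay it was called higher in 17 treatments and lower in 3, with L2FC from −2.86 to 8.84. In vehicle wells it stood at 26.2, 47.2 and 23.6 CPM in batch 1 and at 14, 18.9, 11.3, 11.7, 19.6 and 18.3 CPM in batch 2. With WY14643 at 200 µM, a PPARα agonist, it reached 11100, 9990 and 9160 CPM in batch 1 and 4740, 5260 and 4880 CPM in batch 2. Every treated well was far above the vehicle wells of its batch, and L2FC was 8.84 ± 0.33 (457-fold, adjusted p = 5.62e-59). The low concentration, 8 µM, gave 1270, 1070 and 865 CPM in batch 1 and 495, 739 and 636 CPM in batch 2 (L2FC 5.71 ± 0.31), again with no overlap with vehicle.

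Between both concentrations of WY14643 in the order stood caffeine at 10000 µM, a methylxanthine, and indomethacin at 300 µM, a non-steroidal anti-inflammatory drug. Caffeine gave 1860, 3190 and 2140 CPM of Cyp2b2 in batch 1 and 992, 2170 and 1790 CPM in batch 2 (L2FC 6.73 ± 0.31). Indomethacin gave 1360, 1950 and 1760 CPM in batch 1 and 878, 1260 and 1070 CPM in batch 2 (L2FC 6.005 ± 0.31). The wells of both treatments overlapped in each batch, so their order is not resolved. L2FC was between 3.85 and 4.72 with naproxen at 2000 µM (4.72 ± 0.30), simvastatin at 60 µM (4.67 ± 0.30), chloramphenicol at 450 µM (4.26 ± 0.30), valproic acid at 400 µM (4.12 ± 0.30) and sulfasalazine at 100 µM (3.85 ± 0.30). Of these 5, each overlapped its neighbour in the order in at least 1 batch. Smaller rises were called with naproxen at 80 µM (2.68 ± 0.31), doxorubicin at 2 µM (2.37 ± 0.31), chloramphenicol at 18 µM (1.64 ± 0.32), sulfasalazine at 4 µM (1.48 ± 0.32), caffeine at 400 µM (1.33 ± 0.33), doxorubicin at 0.08 µM (1.16 ± 0.33), diclofenac at 400 µM (1.10 ± 0.34) and valproic acid at 10000 µM (0.90 ± 0.33). The batches differed with doxorubicin at 0.08 µM (−0.18 in batch 1 and 1.95 in batch 2, adjusted p of the difference 0.00422) and with simvastatin at 60 µM (3.60 and 5.30, 0.0266). With doxorubicin at 0.08 µM the wells overlapped vehicle in 1 batch, and with diclofenac at 400 µM in both. Of the 17 higher calls of Cyp2b2 in ST, 12 were made in both batches fitted by themselves. In the whole order of 28 treatments, 6 of 27 pairs of neighbours were apart in both batches and 21 overlapped in at least 1.

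Cyp2b2 fell with 3 treatments, all at the high concentration. With acetaminophen at 10000 µM it was at 1.25, 2.21 and 2.35 CPM in batch 1 and at 0, 4.85 and 2.26 CPM in batch 2, which is 0 to 9 reads per well (L2FC −2.86 ± 0.55, adjusted p = 1.01e-06). With ranitidine at 4000 µM, a histamine H2 receptor blocker, it was at 11.5, 7.54 and 7.31 CPM in batch 1 and at 3.6, 4.75 and 3.43 CPM in batch 2 (L2FC −1.93 ± 0.47, adjusted p = 0.000147). With ketoconazole at 15 µM, an azole antifungal that inhibits CYPs, it was at 11.4, 12.1 and 9.85 CPM in batch 1 and at 9.4, 8.07 and 9.48 CPM in batch 2 (L2FC −1.18 ± 0.40, adjusted p = 0.00777). In all 3 treatments every well was below the lowest vehicle well of its batch. The ketoconazole call did not pass in batch 2 fitted by itself (L2FC −0.75, adjusted p = 0.173).

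**Figure D2:**
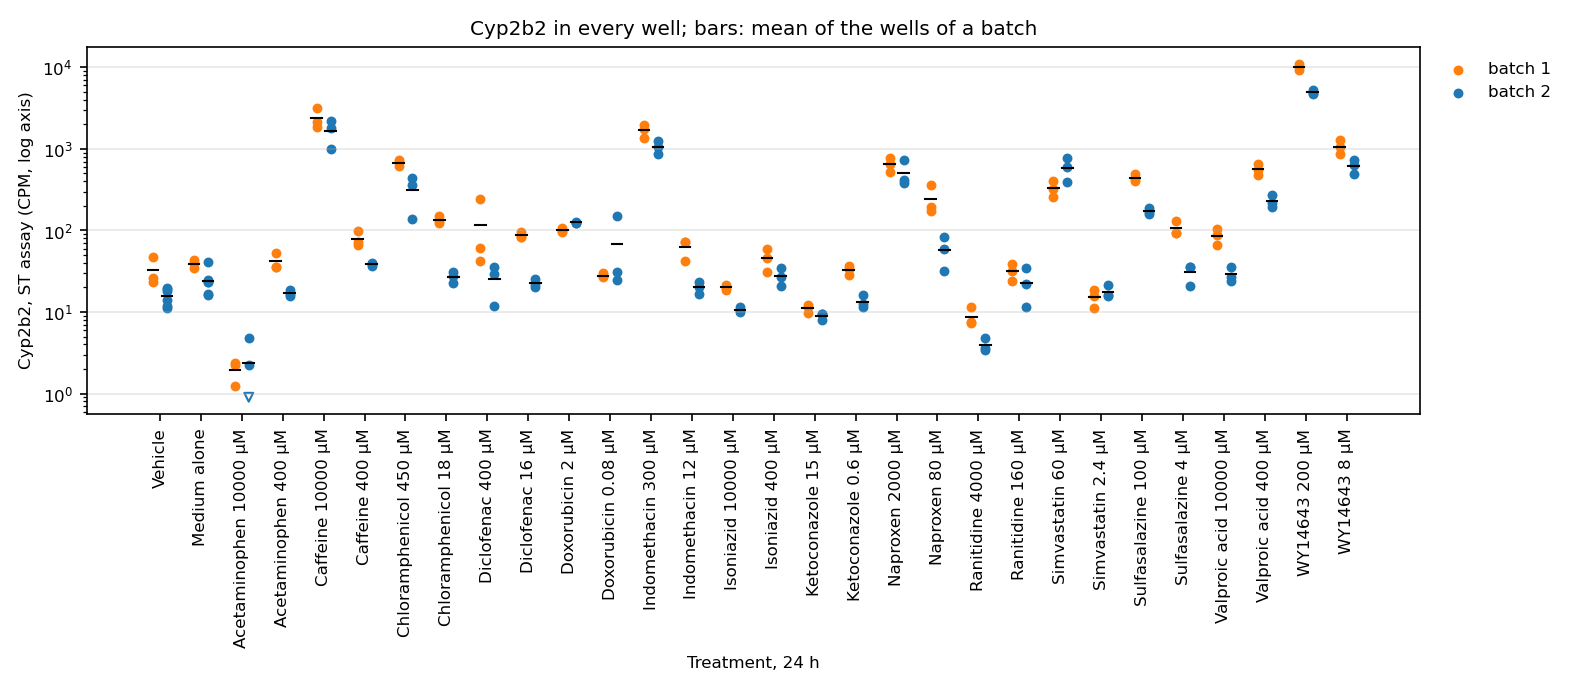
Cyp2b2 in CPM in every well of the ST assay (log axis), by treatment, with batch 1 in orange, batch 2 in blue and bars for the mean of the wells of a batch; the open triangle marks a well with 0 reads. Vehicle wells lie between 11.3 and 47.2 CPM, WY14643 at 200 µM between 4740 and 11100 CPM, and acetaminophen at 10000 µM between 0 and 4.85 CPM.

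Cyp2b1, the close relative of Cyp2b2 and likewise a phenobarbital-inducible enzyme, gave nearly the same pattern in the ST assay, with 16 treatments called higher and 3 lower. Vehicle wells held 50.2, 53.1 and 32 CPM in batch 1 and 21.3, 31.3, 16.9, 22.6, 22.4 and 19.3 CPM in batch 2. WY14643 at 200 µM gave 13700, 13200 and 12900 CPM in batch 1 and 5630, 6370 and 6500 CPM in batch 2 (L2FC 8.68). Caffeine at 10000 µM gave 2710, 4640 and 3110 CPM in batch 1 and 1340, 2920 and 2650 CPM in batch 2 (6.73), and indomethacin at 300 µM gave 1900, 2530 and 2500 CPM and 1230, 1680 and 1450 CPM (5.94). All these wells were above vehicle, and those of both treatments overlapped each other in batch 2 but not in batch 1. Among the falls, acetaminophen at 10000 µM left 2.5, 7.37 and 0.783 CPM in batch 1 and 1.96, 5.39 and 5.07 CPM in batch 2 (−2.54). Ranitidine at 4000 µM left 13.9, 6.47 and 12.5 CPM and 8.99, 10.2 and 3.43 CPM (−1.82), and ketoconazole at 15 µM 17.5, 9.78 and 14.8 CPM and 13, 8.69 and 13.3 CPM (−1.33). In all 3 treatments every well was below the vehicle wells of its batch. Across the 28 treatments L2FC of Cyp2b1 and Cyp2b2 in ST had r = 0.998, a description over treatments that share vehicle wells. Since both genes are nearly identical, whether each probe reads its own gene alone cannot be told apart from these counts.

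The Cyp2b1 probe of the WT assay is another one than that of the ST assay and caught few reads, with 0 to 3 reads per vehicle well. It still showed the strongest responses, at 155 to 421 reads per well with WY14643 at 200 µM and 59 to 165 reads with caffeine at 10000 µM. In total 10 treatments were called higher and 2 lower by it. With diclofenac at 400 µM the assays made opposite calls, L2FC 1.04 in ST and a lower call in WT, where 5 of 6 treated wells had 0 reads and 1 had 1 read, so no fold is given. Cyp2b2 is read by the same probe in both assays, and there L2FC had the same sign in 28 of 28 treatments with a median absolute difference of 0.127. Cyp3a1 likewise had the same sign in 28 of 28, with a median difference of 0.224. Cyp3a2 and Por, also read by the same probe, had the same sign in 24 of 28 each (median differences 0.329 and 0.0845), and Cyp2b1, with different probes, in 23 of 28.

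Cyp3a1 encodes a steroid 6β-hydroxylase, the main CYP3A form that glucocorticoids and other PXR ligands induce in rat liver. By ST assay it was called higher in 16 treatments and lower in 1. In vehicle wells it stood at 88.8, 74.9 and 56.4 CPM in batch 1 and at 44.4, 67.7, 62, 46.9, 45.7 and 45.7 CPM in batch 2. With simvastatin at 60 µM, a lipid-lowering drug, it was at 10400, 10500 and 10100 CPM in batch 1 and at 9660, 10300 and 10000 CPM in batch 2. Both batches reached about the same level, and L2FC was 7.48 ± 0.27 (178-fold, adjusted p = 3.34e-61). At 2.4 µM simvastatin the wells were at 108, 156 and 105 CPM in batch 1 and at 37.2, 57.1 and 32.1 CPM in batch 2, and the difference from vehicle was not called.

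Chloramphenicol at 450 µM, an inhibitor of bacterial and mitochondrial protein synthesis, came second in the ST order for Cyp3a1, and the batches differed. Its wells were at 3640, 2970 and 2920 CPM in batch 1 and at 444, 726 and 722 CPM in batch 2 (L2FC 4.54 ± 0.24). WY14643 at 200 µM gave 1460, 1070 and 907 CPM in batch 1 and 583, 780 and 614 CPM in batch 2 (L2FC 4.26 ± 0.24). Caffeine at 10000 µM (L2FC 4.20 ± 0.24) and indomethacin at 300 µM (4.18 ± 0.24) followed, and neighbours among these 4 treatments overlapped in at least 1 batch. Below them stood ketoconazole at 15 µM (2.61 ± 0.23), ranitidine at 160 µM (2.24 ± 0.24), sulfasalazine at 100 µM (1.83 ± 0.24), ketoconazole at 0.6 µM (1.37 ± 0.24), WY14643 at 8 µM (1.30 ± 0.24) and valproic acid at 400 µM (1.07 ± 0.24). The other 5 rises had L2FC from 0.65 to 0.97.

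In the WT assay Cyp3a23/3a1 and Cyp3a2 followed Cyp3a1 in most treatments. Cyp3a23/3a1, which RefSeq lists under the same gene as Cyp3a1, had 0.297 to 1.04 CPM in vehicle wells (2 to 7 reads) and 131 to 157 CPM with simvastatin at 60 µM (L2FC 7.82 ± 0.30). Indomethacin at 300 µM gave 21.1, 26.4 and 32.7 CPM in batch 1 and 4.73, 9.88 and 4.98 CPM in batch 2 (4.49 ± 0.32), and caffeine at 10000 µM gave 16, 23.1 and 16.6 CPM and 6.36, 11.2 and 9.84 CPM (4.30 ± 0.32), all above vehicle. It was called higher in 10 treatments and lower in none, and its lowest L2FC was −0.99 ± 0.58 with diclofenac at 400 µM (adjusted p = 0.12 by edgeR). When the reads of the Cyp3a1 and Cyp3a23/3a1 probes were added, a choice made after seeing the data, simvastatin at 60 µM gave 7.28 ± 0.23 in WT and 7.47 ± 0.27 in ST. Cyp3a2, a testosterone hydroxylase typical of the male rat, had 11.8 to 13.1 CPM in the vehicle wells of batch 1 and 7.09 to 9.64 CPM in those of batch 2 in WT. With simvastatin at 60 µM it had 950, 1130 and 866 CPM in batch 1 and 1000, 1010 and 1010 CPM in batch 2 (L2FC 6.66 ± 0.22). Next came indomethacin at 300 µM, with 146, 183 and 189 CPM in batch 1 and 53.8, 63.4 and 41.7 CPM in batch 2 (3.44 ± 0.21), and caffeine at 10000 µM, with 94.1, 204 and 132 CPM and 40.7, 94.8 and 66 CPM (3.35 ± 0.21). No well of these 3 treatments overlapped with vehicle.

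Cyp3a2 was called higher in 17 treatments by WT assay and in 13 by ST assay, and in some of these treatments Cyp3a1 was called in only 1 assay or in neither. With acetaminophen at 10000 µM Cyp3a2 was at 62.4, 29.7 and 35 CPM in batch 1 and at 28.1, 18.5 and 18.8 CPM in batch 2, all above the vehicle wells (L2FC 1.92 ± 0.21 in WT and 1.96 ± 0.23 in ST), while L2FC of Cyp3a1 was 0.44 ± 0.26 in WT, not called, and 0.66 ± 0.25 in ST, called higher. With valproic acid at 10000 µM Cyp3a2 rose (1.21 ± 0.21 in WT, 1.59 ± 0.23 in ST) and Cyp3a1 had 0.06 ± 0.26 in WT and was not called in either assay. With doxorubicin at 2 µM Cyp3a2 rose as well (0.97 ± 0.22 in WT, 1.30 ± 0.24 in ST) and Cyp3a1 was not called in either assay. The difference between both genes within a treatment was not tested. Across the 28 treatments r of L2FC between Cyp3a1 and Cyp3a2 was 0.963 in WT and 0.907 in ST.

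**Figure D3:**
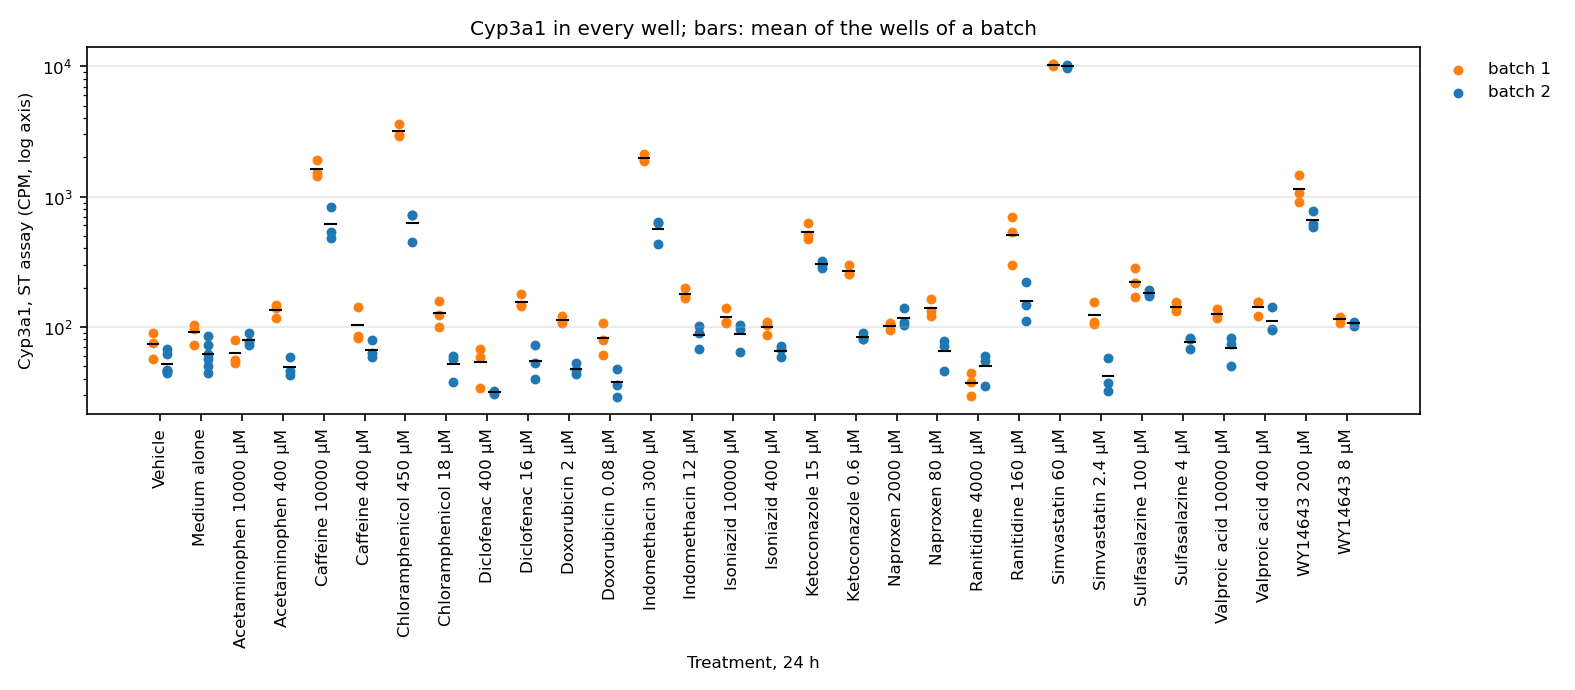
Cyp3a1 in CPM in every well of the ST assay (log axis), by treatment, with batch 1 in orange, batch 2 in blue and bars for the mean of the wells of a batch. Simvastatin at 60 µM lies between 9660 and 10500 CPM in both batches, while chloramphenicol at 450 µM lies at 2920 to 3640 CPM in batch 1 and at 444 to 726 CPM in batch 2.

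Falls of CYP3A genes were few. With diclofenac at 400 µM, an anti-inflammatory drug, Cyp3a1 fell in both assays (−0.95 ± 0.28 in ST, −1.19 ± 0.30 in WT). Its ST wells were at 34.1, 66.9 and 58.6 CPM in batch 1 and at 32.3, 31.3 and 30.4 CPM in batch 2, the former overlapping vehicle. With ranitidine at 4000 µM Cyp3a1 had 0.888 to 1.95 CPM in batch 1 and 1.03 to 2.63 CPM in batch 2 of the WT assay, below all vehicle wells (5.36 to 9.07 and 3.33 to 4.69 CPM), and L2FC was −1.45 ± 0.31. The ST assay did not call that fall. Cyp3a2 was called lower with diclofenac at 400 µM in WT only (−0.54 ± 0.24), a call that 9 of 21 refits lost and that came from batch 1 (−0.97, against −0.10 in batch 2). Its wells there were at 6.28, 7.58 and 6.18 CPM in batch 1, below vehicle, and at 11.6, 6.94 and 7.84 CPM in batch 2, overlapping it. Diclofenac at 400 µM and ranitidine at 4000 µM were the treatments with the lowest summed hepatocyte markers, and whether this had a part in the falls was not tested. In lysates of whole wells, fewer cells that express a gene and less of its RNA per cell cannot be told apart.

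With ranitidine at 160 µM few genes besides CYP3A forms were called. The wells of Cyp3a1 in ST, shown although the treatment was picked after its values were seen, were at 691, 300 and 531 CPM in batch 1 and at 222, 146 and 111 CPM in batch 2, all above vehicle. In WT they were at 36.6, 26.8 and 47.5 CPM and at 12.5, 13 and 6.49 CPM. L2FC was 2.24 ± 0.24 in ST and 1.97 ± 0.23 in WT, and Cyp3a2 (1.70 ± 0.21) and Cyp3a23/3a1 (2.36 ± 0.37) rose too in WT. In the whole WT assay this treatment had 4 genes called higher and 2 called lower, so 3 of the 4 that rose were CYP3A probes, 2 of them for names that RefSeq lists as 1 gene, and the other was Cyp2c24, another CYP (1.40 ± 0.22). Over 21 other settings the higher count ran from 3 to 9 in WT and from 2 to 8 in ST, and 592 WT genes and 151 ST genes had an unadjusted p below 0.05. The 2 lower ones were Ltbp4 (−0.79) and Coq4 (−0.70). The ST assay called Cyp3a1, Cyp3a2, Cyp2c24 and the sulfotransferase Sult2a6 higher (1.28 ± 0.27) and Pik3ca lower. Cyp2b2 was not called (0.32 ± 0.36 in ST). The L2FC of Cyp3a1 was 2.40 in batch 1 and 1.45 in batch 2 in WT, and Cyp3a1 was called in all 21 refits run under other settings in either assay. Cyp3a2 was called in 22 of 22 in WT but in 20 of 22 in ST (highest adjusted p 0.129), and Cyp3a23/3a1 in 20 of 21 in WT (0.202 in batch 2 by itself). At 4000 µM Cyp3a1 was lower than at 160 µM by 2.77 ± 0.28 in ST and 3.42 ± 0.29 in WT.

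Ketoconazole gave opposite calls in the families at its high concentration. At 15 µM Cyp3a1 was at 630, 476 and 511 CPM in batch 1 and at 283, 299 and 321 CPM in batch 2 of the ST assay, while Cyp2b2 fell as given above. At 0.6 µM Cyp3a1 was at 255, 298 and 254 CPM in batch 1 and at 80.3, 81 and 89.9 CPM in batch 2, with L2FC of Cyp2b2 of 0.06 ± 0.35, not called. The rise of Cyp3a1 from the low to the high concentration was 1.25 ± 0.25 in ST.

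To compare the families within a well, the log2 ratio of Cyp2b2 to Cyp3a1 counts (0.5 added to each) was taken, a measure chosen after seeing the data. It was tested against vehicle by an exact two-sided permutation within batches, which has 1680 arrangements and a smallest possible p of 0.000595, and adjusted over the 28 treatments. In ST the ratio shifted toward Cyp2b2 in 14 treatments and toward Cyp3a1 in 7, and was not called in 7. In WT the counts were 14, 6 and 8. The difference between both genes had been seen in these same values before the test, so the counts are a description and no independent support. The permuted wells are technical replicates, so p measures the spread between wells, and no other pair of genes was tested for comparison. The largest shifts toward Cyp2b2 in ST were 4.51 with WY14643 at 200 µM, 4.35 with WY14643 at 8 µM, 3.82 with naproxen at 2000 µM and 2.97 with valproic acid at 400 µM. Toward Cyp3a1 they were −3.82 with ketoconazole at 15 µM, −3.80 with acetaminophen at 10000 µM (−2.58 in WT, and resting on the 0 to 9 reads of Cyp2b2 per well given above), −3.10 with simvastatin at 60 µM and −1.93 with ranitidine at 160 µM. All 8 had the smallest possible exact permutation p of 0.000595 (adjusted 0.00111). Chloramphenicol at 450 µM gave similar L2FC for both genes, with a shift of −0.199 that was not called in the exact permutation test, −1 in batch 1 and 0.605 in batch 2.

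**Figure D4:**
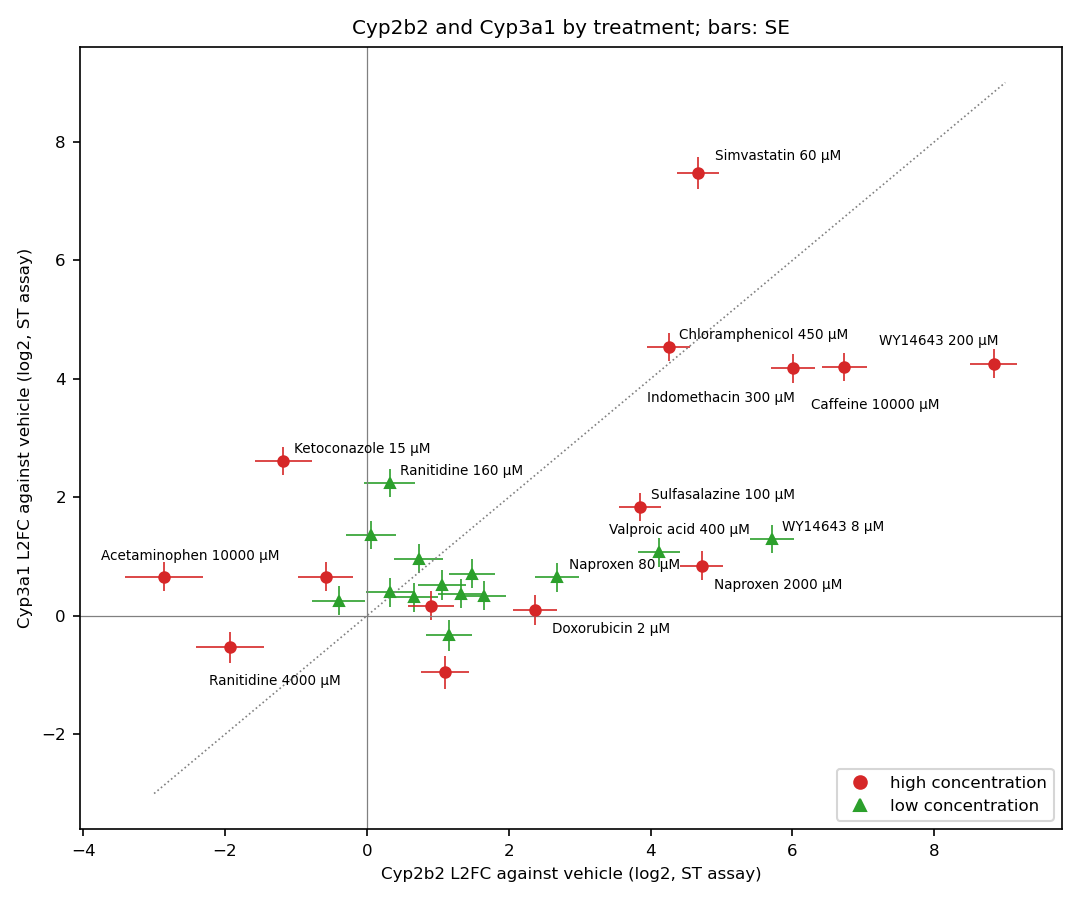
L2FC of Cyp2b2 (horizontal) against that of Cyp3a1 (vertical) in the ST assay, both on the log2 scale, 1 point per treatment with SE as bars; red circles are high and green triangles low concentrations, and the dotted line marks equal L2FC. Simvastatin at 60 µM lies far above the line (4.67 and 7.48), WY14643 at 200 µM far below it (8.84 and 4.26), and ketoconazole at 15 µM in the upper left (−1.18 and 2.61).

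Cyp3a9, a CYP3A form that is known to be higher in female than in male rat liver, did not follow the others. It was measured by WT assay only, where it was called higher in 9 treatments and lower in 2. Its r with the L2FC of the other members was between −0.15 and 0.124 over the 28 treatments. Vehicle wells held 35.5, 37.3 and 32 CPM in batch 1 and 14.6, 12.5, 10.6, 13.6, 16.7 and 12.1 CPM in batch 2. With doxorubicin at 2 µM it was at 89, 86 and 64.1 CPM in batch 1 and 77, 65.7 and 68 CPM in batch 2 (L2FC 1.86 ± 0.14), a response that differed between batches (1.28 and 2.33, adjusted p of the difference 0.00259). Valproic acid at 10000 µM gave 91.5 to 116 CPM and 38.5 to 52.6 CPM (1.47 ± 0.14), and ranitidine at 4000 µM gave 76.7, 77.8 and 76.5 CPM and 31.8, 28.9 and 27.4 CPM (1.28 ± 0.15). All these wells were above the vehicle wells of their batch, and in batch 1 those with valproic acid were above those with doxorubicin. Summed markers of liver cells also differed from vehicle in these treatments. With doxorubicin the Kupffer cell sum was at 3.6 to 7.71 CPM, the stellate cell sum at 0.805 to 5.12 CPM and the endothelial sum at 0 to 0.482 CPM, all below vehicle, while the cholangiocyte sum (28.1 to 44.9 CPM) overlapped it. With valproic acid the Kupffer cell sum (12.7 to 18.5 CPM) and the endothelial sum (0 to 0.269 CPM) were below vehicle, the cholangiocyte sum (49.6 to 74.2 CPM) was above it, and the stellate cell sum (16.4 to 67 CPM) overlapped it with its highest well above. With ranitidine the endothelial sum (0 to 0.891 CPM) was below vehicle, and the Kupffer, stellate and cholangiocyte sums overlapped it. The hepatocyte sum was below vehicle with doxorubicin (21200 to 25200 CPM) and valproic acid (14100 to 19200 CPM), and with ranitidine as given above. The part of these shifts in the rises of Cyp3a9 was not tested. With simvastatin at 60 µM, the strongest inducer of the other CYP3A genes here, Cyp3a9 was at 26.9 to 36 CPM in batch 1 and 13.6 to 15.8 CPM in batch 2, overlapping vehicle in both. The deepest fall was with diclofenac at 400 µM, at 5.76, 11.9 and 9.78 CPM and at 4.95, 9.29 and 7.04 CPM (−1.52 ± 0.17), and the other lower call, with chloramphenicol at 450 µM (27.1, 24 and 28 CPM and 8.27, 11.7 and 9.13 CPM, the latter overlapping vehicle), was −0.49 ± 0.16 and was lost in 4 refits, namely in batch 1 by itself (adjusted p = 0.0609), with library totals alone (0.0575) and without replicate 1 or 2 (0.102 and 0.0807).

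Por encodes the NADPH-cytochrome P450 reductase, which every microsomal CYP needs, and is itself a known target of CAR. It was called higher in 12 treatments in each assay and lower in 1 treatment in WT only. In the ST assay vehicle wells held 502, 440 and 489 CPM in batch 1 and 527, 580, 553, 531, 575 and 484 CPM in batch 2. WY14643 at 200 µM gave 2410, 2380 and 2820 CPM and 2870, 2540 and 2770 CPM (L2FC 2.90 ± 0.11), and caffeine at 10000 µM gave 2330, 2580 and 2340 CPM and 3070, 4220 and 4370 CPM (2.85 ± 0.11). WY14643 at 8 µM gave 2140, 2280 and 1650 CPM and 1770, 2260 and 2310 CPM (2.54 ± 0.11). No well of these treatments overlapped with vehicle. With acetaminophen at 10000 µM, where Cyp2b2 fell, Por was at 1440, 1300 and 1540 CPM in batch 1 and at 2200, 2170 and 1840 CPM in batch 2 (2.23 ± 0.11 in ST, 1.94 ± 0.11 in WT). The lower call was with isoniazid at 10000 µM (−0.32 ± 0.12 in WT, adjusted p = 0.0269), where wells stood at 80.5 to 86.2 CPM in batch 1 and 107 to 112 CPM in batch 2, against 97.3 to 114 and 113 to 137 CPM with vehicle. That call was lost in each batch fitted by itself (adjusted p = 0.144 and 0.0509).

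Between the low and the high concentration of a chemical, members were called higher at the high one 49 times and lower 20 times out of 98 in WT, beside 20.1% and 20.7% of all gene and chemical pairs. In ST it was 40 and 14 times out of 70, beside 23.9% and 25.3%. Cyp2b2 was lower at the high concentration for 5 chemicals in both assays. The largest such difference was with valproic acid, an antiepileptic, where the wells at 400 µM were at 654, 552 and 475 CPM in batch 1 and 275, 215 and 193 CPM in batch 2, and those at 10000 µM at 66.7, 88.3 and 105 CPM and at 27.2, 36 and 24.3 CPM (−3.21 ± 0.32 in ST, −3.58 ± 0.31 in WT). The concentrations did not overlap in either batch. Acetaminophen gave −3.19 ± 0.55, ranitidine −2.25 ± 0.49, isoniazid −1.25 ± 0.40 and ketoconazole −1.23 ± 0.42 in ST. For Cyp3a1 the chemicals were 3, namely ranitidine, diclofenac (−1.47 ± 0.29) and valproic acid (−0.90 ± 0.26). Between 8 and 200 µM WY14643 the difference was 0.35 ± 0.12 for Por, 3.13 ± 0.29 for Cyp2b2 and 2.96 ± 0.26 for Cyp3a1 in ST. That of Por was called in ST (adjusted p = 0.0323 by edgeR) but not in WT (0.38 ± 0.13, adjusted p = 0.052).

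Of 10 regulators listed as background to these genes, 8 passed the filter in WT. Nr1i3 (CAR) was called higher in 9 treatments and lower in 9, Nr1i2 (PXR) higher in 9 and lower in 8, and their partner Rxra higher in 10 and lower in 4. Ppara, the receptor of WY14643, was higher in 8 and lower in 7, the corepressor-like receptor Nr0b2 (SHP) in 7 and 3, the liver factors Cebpa in 13 and 2 and Hnf4a in 7 and 6, and the corepressor Ncor1 in 2 and 4. The glucocorticoid receptor Nr3c1 passed in ST only (1 higher, 9 lower). In vehicle wells Nr1i3 stood at 4.92 to 5 CPM in batch 1 and 2.25 to 7.09 CPM in batch 2. WY14643 at 200 µM gave 32.8 to 36.8 and 38.5 to 39.6 CPM of it (L2FC 3.06 ± 0.18), while acetaminophen at 10000 µM left 0 to 4 reads per well and ranitidine at 4000 µM 0 to 4 reads (both called lower). Nr1i2 fell from 120 to 146 CPM in vehicle wells of batch 2 to 4.03 to 6.87 CPM with acetaminophen at 10000 µM (−4.45 ± 0.19).

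Cyp2b2 was called higher in all 9 treatments in which Nr1i3 was called higher, in both assays. It was also called higher in 4 treatments in WT and 6 in ST in which Nr1i3 was not called. In all it was higher in 16 of 28 treatments in WT and in 17 in ST. Where Nr1i3 was called lower in WT (9 treatments), Cyp2b2 was lower in 3 (acetaminophen at 10000 µM, ketoconazole at 15 µM and ranitidine at 4000 µM), higher in 3 (caffeine at 10000 µM, diclofenac at 400 µM and doxorubicin at 2 µM) and not called in 3. With caffeine at 10000 µM L2FC was 6.48 ± 0.29 for Cyp2b2 and −0.74 ± 0.23 for Nr1i3 in WT, but in ST Nr1i3 was not called lower with caffeine (−0.21 ± 0.28) or with doxorubicin at 2 µM (−0.31 ± 0.28). Cyp3a1 was called higher in 7 of the 9 treatments with Nr1i2 higher and in 1 of the 8 with Nr1i2 lower, which was ketoconazole at 15 µM (Cyp3a1 2.26 ± 0.22, Nr1i2 −1.13 ± 0.14). In ST Cyp3a1 was higher in 6 of the 6 treatments with Nr1i2 higher and in 3 of the 7 with Nr1i2 lower. Where Nr1i2 was not called, Cyp3a1 was higher in 4 treatments in WT and 7 in ST, out of 12 and 16 higher calls in all. With simvastatin at 60 µM L2FC of Nr1i2 was 0.35 ± 0.14 in WT (adjusted p = 0.0487) and 0.40 ± 0.17 in ST, where it was not called (0.0513). Over the 28 treatments, which share vehicle wells, r of L2FC was 0.788 for Nr1i3 with Cyp2b2 and 0.389 for Nr1i2 with Cyp3a1 in WT (0.778 and 0.313 in ST). For the crossed pairs r was 0.702 for Nr1i2 with Cyp2b2 and 0.407 for Nr1i3 with Cyp3a1 in WT (0.685 and 0.342 in ST).

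**Figure D5:**
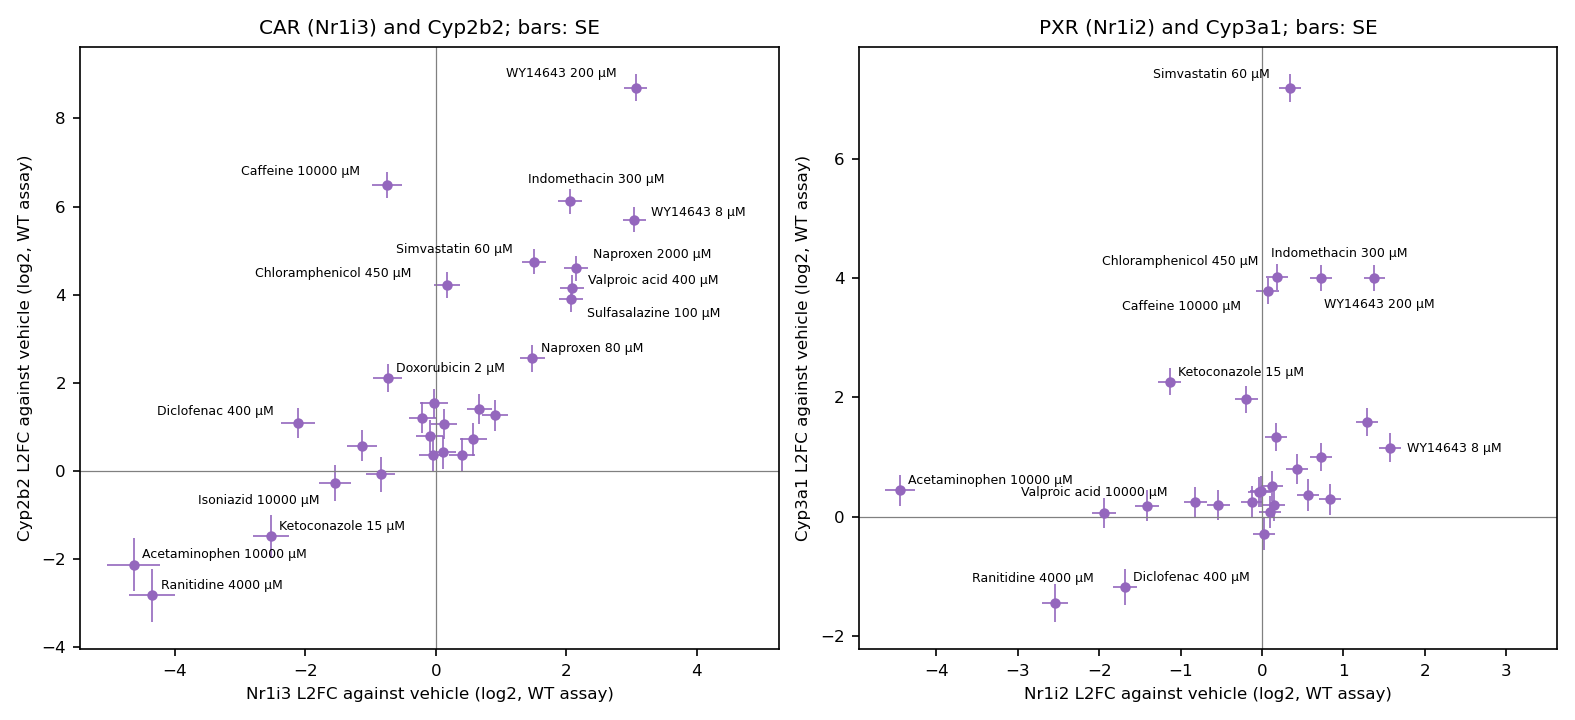
L2FC of the receptor (horizontal) against that of a target (vertical) in the WT assay, on the log2 scale, 1 point per treatment with SE as bars, for CAR (Nr1i3) with Cyp2b2 on the left and PXR (Nr1i2) with Cyp3a1 on the right. On the left caffeine at 10000 µM lies high (6.48) at a Nr1i3 below 0 (−0.74, not called in ST), and on the right simvastatin at 60 µM lies high (7.19) at a Nr1i2 near 0 (0.35).

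Of the other CYP2B and CYP3A genes only Cyp2b3, a form not known as phenobarbital-inducible, passed the filter. It was called higher in 10 treatments and lower in 3 in WT, with L2FC from −2.56 with ranitidine at 4000 µM to 2.14 with doxorubicin at 2 µM. WY14643 at 200 µM gave 1.99 ± 0.25, and caffeine at 10000 µM, among the strongest treatments for Cyp2b2, gave −0.48 ± 0.28, not called.

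A list of 25 further genes known as CAR or PXR targets was described by WT assay. In ST 15 of them passed the filter, including Abcb1a, Abcb1b, Ugt1a1 and Ugt2b1, which had no WT probe of that name. The ST values of the list are not reported here. In WT 13 of the 25 passed the filter. They were the CYPs Cyp2c6v1 and Cyp2c7, the electron carrier Cyb5a, the enzymes Aldh1a1, Akr7a3 and Ephx1 that act on aldehydes and epoxides, the glutathione transferases Gsta2, Gsta3 and Gstp1, the transporters Abcc2 and Abcc3, Alas1 of heme synthesis and the stress response gene Gadd45b. Over the 28 treatments they were called higher 102 times and lower 54 times out of 364 (28% and 14.8%, beside 15.2% and 15.0% of all pairs). Alas1, the first enzyme of heme synthesis, which supplies the cofactor of CYPs, was higher in 14 treatments and lower in none. Gadd45b was higher in 10 and lower in 1, and reached the highest L2FC of the 13 genes (4.38 ± 0.15 with caffeine at 10000 µM). With indomethacin at 300 µM 12 of 13 were higher and none lower by edgeR (median L2FC 1.29, beside 0.0129 over all genes and 27.1% of all genes higher), led by Gsta2, a glutathione transferase (3.36 ± 0.25), and Cyp2c6v1, a CYP (2.47 ± 0.25). Chloramphenicol at 450 µM raised 10 and lowered none (median 0.945, 16.1% of all genes higher), with Gsta2 at 3.55 ± 0.25 and Cyp2c6v1 at 2.33 ± 0.25, and simvastatin at 60 µM and doxorubicin at 2 µM raised 8 each and lowered none (11.4% and 9.07% of all genes higher). With simvastatin the leading genes were Gsta2 (3.02 ± 0.24) and Cyp2c6v1 (2.15 ± 0.25), and with doxorubicin the retinal dehydrogenase Aldh1a1 (3.05 ± 0.32) and Gsta2 (1.52 ± 0.24). WY14643 at 200 µM raised 7 and lowered 4 (26% of all genes higher and 25.3% lower), with Cyp2c6v1 at 3.39 ± 0.26 and Aldh1a1 at 3.02 ± 0.32. Ranitidine at 4000 µM raised 4 and lowered 4 (32.3% of all genes higher and 33.9% lower, about the same share), with Aldh1a1 at −5.15 ± 0.49 and Gadd45b at 1.65 ± 0.15. Caffeine at 10000 µM raised 7 and lowered 6, acetaminophen at 10000 µM 3 and 6, valproic acid at 10000 µM 3 and 5, and diclofenac at 400 µM 3 and 8 (median −0.677), where 33.5% to 38.8% of all genes were higher and 31.6% to 40.1% lower. Gadd45b was among the 2 leading genes in all 4. Beside it stood Gstp1 (−3.03 ± 0.21) with caffeine. With acetaminophen they were Gadd45b (3.53 ± 0.15) and Aldh1a1 (−2.53 ± 0.39), with valproic acid Akr7a3 (−1.92 ± 0.22) and Gadd45b (1.31 ± 0.15), and with diclofenac Gadd45b (1.18 ± 0.15) and Cyp2c6v1 (−1.09 ± 0.30).

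The list was called in both directions in the other 4 treatments at high concentrations. Naproxen at 2000 µM raised 7 of 13 and lowered 1, led by Gsta2 (3.28 ± 0.25) and Aldh1a1 (2.41 ± 0.32), beside 27.6% and 26.2% of all genes. Sulfasalazine at 100 µM raised 6 and lowered 5 (21.3% and 19.6% of all genes), with Gsta2 at 1.26 ± 0.24 and Cyp2c6v1 at 1.14 ± 0.26. Ketoconazole at 15 µM raised 4 and lowered 2 (25% and 26.3%), with Gsta2 at 2.05 ± 0.24 and Aldh1a1 at −1.59 ± 0.36. Isoniazid at 10000 µM raised 5 and lowered 4 (17.4% and 17.3%), with Gsta3 at −1.34 ± 0.23 and Akr7a3 at −1.18 ± 0.21. At low concentrations 4 treatments changed any of the genes. WY14643 at 8 µM raised 4 and lowered 4 (Aldh1a1 2.83 ± 0.32, and the transporter Abcc2 −2.13 ± 0.17), as did valproic acid at 400 µM (Aldh1a1 1.77 ± 0.32, Akr7a3 −1.45 ± 0.21), beside 28% and 28.2% of all genes with the former and 15.1% and 14% with the latter. Naproxen at 80 µM raised 4 and lowered 1 (Aldh1a1 1.17 ± 0.32, Cyp2c6v1 0.79 ± 0.26), beside 8.64% and 7.4% of all genes. Doxorubicin at 0.08 µM raised 3 and lowered none (Aldh1a1 1.19 ± 0.32, Akr7a3 0.84 ± 0.19), beside 1.08% and 0.245%.

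Medium alone was compared with vehicle to see the effect of 0.5% DMSO. In WT 2 of 7 members were called, beside 12.6% of all genes, and in ST 1 of 5, beside 21.6%. Cyp3a9 was at 57.4, 62 and 57 CPM in batch 1 and at a median of 20.1 CPM (14.8 to 22.3) in batch 2 with medium, which is 0.72 ± 0.14 above vehicle (adjusted p = 2.49e-05). Por was 0.33 ± 0.10 above vehicle in WT and 0.29 ± 0.10 in ST. Its WT wells with medium were at 110, 115 and 115 CPM in batch 1, against 97.3 to 114 CPM with vehicle, and at 153 to 165 CPM in batch 2, above the 113 to 137 CPM of vehicle.

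The batches, each of 1 rat, gave different responses for 15 of 196 member and treatment pairs in WT, beside 2.44% of all pairs, and for 14 of 140 in ST, beside 4.31%. In 4 pairs both assays made the call with the same sign. Cyp3a1 rose less in batch 2 with chloramphenicol at 450 µM (4.58 in batch 1 and 3.19 in batch 2 in WT, 5.56 and 3.28 in ST), as did Cyp3a2 (4.00 and 2.31 in WT). Cyp3a2 also rose less in batch 2 with indomethacin at 300 µM (4.06 and 2.72), and Por with naproxen at 80 µM (1.16 and 0.34). Of the 86 higher and 11 lower calls in WT, 69 and 5 were made in both batches fitted by themselves.

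Among 5979 to 5980 other genes that averaged 100 or more reads per well in WT, those whose L2FC over the 28 treatments was most like that of Cyp2b2 were Cpt2 (r = 0.894), Cyp2j4 (0.889) and Ppcs (0.884). For Cyp2b1 they were Cyp2b2 (0.929), Trim25 (0.909) and Cyp2j4 (0.908). For Cyp3a1 they were Cyp3a2 (0.963), Cyp2c6v1 (0.801) and Spryd7 (0.767), for Cyp3a2 Cyp3a1 (0.963), Cyp2c6v1 (0.747) and Prkaa1 (0.717), and for Cyp3a23/3a1 Cyp3a1 (0.98), Cyp3a2 (0.949) and Cyp2c6v1 (0.762). For Cyp3a9 they were St3gal1 (0.735), Enpep (0.725) and Tango2 (0.691), and for Por Pnpla8 (0.942), Mocs2 (0.887) and Fbxw2 (0.887). The points share vehicle wells and libraries, and the values are a description.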

How the data were processed

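Lysates of all wells were measured by TempO-Seq, in which pairs of detector oligos are ligated on a transcript and sequenced. The authors deposited raw counts per probe and well for the ST and the WT assay, and their processing notes name STAR 2.5.3a and the rat build rn6. Counts of probes of 1 gene were added here, CPM is counts per M reads of the well, and genes that averaged 10 or more counts over all wells were tested with edgeR 4.0.16 (R 4.3.3), by its quasi-likelihood test with TMM factors and terms for batch and treatment. SE is the absolute L2FC divided by the square root of F, and p-values were adjusted after Benjamini and Hochberg over all genes of the assay. The wells of a batch are technical replicates, so p-values mostly measure the spread between wells. DESeq2 1.42.0, other scalings, filters, batches and wells served as alternatives.

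The members and gene lists were chosen with earlier results of these data known. Named were all members with a probe, regulators and other CYP2B and CYP3A genes past the filter, the 2 listed targets with the largest absolute L2FC among those called in a treatment, the 3 genes most like each member, and genes that check the labels of WY14643 and doxorubicin. A check listed for simvastatin is not reported here. Values per well, or their range, are given for the 3 highest rises of a member and those of its 3 deepest falls that were called, in the assay whose order is described, and for some further treatments chosen after their values were seen. The rule also listed falls that were not called, whose wells are not printed. The 3 CYP3A probes named otherwise in the WT table were linked by probe number. Promoters came from RefSeq GRCr8.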

Additional observations from a re-analysis of the deposited data

Results flagged for a closer look

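In 4 cases the response differed between the batches, by the test of the difference itself, in both assays with the same sign (edgeR, adjusted over all genes and given for WT). The difference, batch 2 minus batch 1, was −1.41 ± 0.33 for Cyp3a1 with chloramphenicol at 450 µM (adjusted p = 0.0152), −1.7 ± 0.259 for Cyp3a2 with the same treatment (1.76e-06), −1.33 ± 0.258 for Cyp3a2 with indomethacin at 300 µM (0.000367) and −0.785 ± 0.177 for Por with naproxen at 80 µM (0.0085). In ST the differences were −2.3, −1.34, −1.27 and −0.633. In batch 1 chloramphenicol and indomethacin stood on the plate without controls, so rat, plate and batch cannot be told apart there.

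Among 26 groups of 6 control wells, 3 held a well far from the others, where chance gives about 1 in 20. All were medium wells of batch 2: 1 well at 40.7 CPM of Cyp2b2 in ST (the others from 16 to 24.8), 1 at 520 CPM of Por in ST (631 to 691) and 1 at 165 CPM of Por in WT (153 to 157).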

How the results depend on the processing

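No paired analysis was possible because the labels number no replicates, and numbers given in accession order pair nothing. Of 1122 refits of 54 named member and treatment results, 1093 kept direction and call, 29 lost the call and none reversed, and 46 results kept their call in every refit run. The calls lost in some refits were those of Cyp2b1 and Cyp2b2 with ketoconazole at 15 µM, Cyp2b1 (WT) and Cyp3a2 (WT) with diclofenac at 400 µM, Cyp3a9 with chloramphenicol at 450 µM and Por with isoniazid at 10000 µM; the cause was not tested.

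The 86 higher calls in WT ranged from 74 to 80 without replicate 1, 2 or 3, and the 11 lower calls from 8 to 10. Lower calls were 5 when both batches had to make them and 7 in ST. Members called with medium, 2 in WT, were 1 with library totals alone, 1 in batch 1, 1 in ST, 0 at an absolute L2FC of at least 1, and 1 to 2 without a replicate. The 1 in ST became 0 with library totals alone, in batch 1 and at an absolute L2FC of at least 1, 2 in batch 2, 3 with only medium and vehicle wells in the fit, and 0 to 1 without a replicate. Batch differences, 8 higher and 7 lower in batch 2, were 5 higher in ST, and 1 to 5 higher and 1 to 8 lower without a replicate. The listed targets had 56 higher and 33 lower calls at an absolute L2FC of at least 1, an alternative chosen after seeing the data, as were the added probes and the fit without the shallowest medium well. With library totals alone 43.3% of all calls in WT were higher, against 50.3%, and 43.5% against 49.3% in ST. Low counts limit the falls of Cyp2b2 and the values of Cyp3a23/3a1 and of Cyp2b1 in WT.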
